A study of Mus musculus with 8 samples.

Results

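The Reg genes of the mouse encode small secreted lectins of the pancreas and gut. The 6 listed here, Reg1, Reg2, Reg3a, Reg3b, Reg3d and Reg3g, were taken by name from the 17401 genes with a value among 20715 listed. They were chosen with their genotype difference and their variation between libraries already known, so both are described below without a test. RNA was sequenced from pancreatic islets, the endocrine clusters of the gland, of C57BL/6 mice aged 12 weeks, in 4 libraries of genotype ob/ob and 4 of genotype ob/+. The ob allele is a loss-of-function mutation of Lep, the gene of the fat cell hormone leptin. The ob/ob mice carry only mutant copies and grow obese, while the ob/+ mice keep a normal copy and so are carriers, not wild type. The islets were freed from the gland with collagenase, purified on a density gradient and picked by hand, and the labels do not say how many mice stand behind a library. The labelled tissue was checked by its markers. The beta cell hormone genes Ins1 and Ins2 were the highest of the islet hormones in all 8 libraries, and Gcg, Sst and Ppy were present in each.

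As background, Reg proteins are C-type lectins made mostly by the acinar cells, the enzyme-secreting cells that surround the islets. Reg1 protein is a major component of pancreatic juice in health, whereas the Reg3 proteins are best known as acute phase proteins that acinar cells switch on in pancreatitis and as antimicrobial proteins of the gut. Their transcription is known to respond to cytokines of the interleukin-6 and interleukin-22 families through the factor STAT3, and some members, Reg2 among them, have also been described in islet cells under stress. Bulk RNA cannot tell more cells of a type from more RNA per cell, nor which cell type made a transcript.

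The 6 genes lie in a single cluster of 98.2 kb on chromosome 6 of GRCm38, with no other protein-coding gene inside it. In the GENCODE annotation the order is Reg3b (78370657 to 78373466, plus strand), Reg3d (78375874 to 78378865, minus), Reg3a (78380709 to 78383827, plus), Reg2 (78395623 to 78408106, plus), Reg1 (78422711 to 78428667, plus) and Reg3g (78466269 to 78468872, minus). The nearest protein-coding gene before the cluster, Ctnna2 of neuronal alpha-catenin, is 391 kb away and was at 1.93 to 2.49 FPKM in ob/ob and 1.57 to 2.13 FPKM in ob/+. On the other side the nearest is a predicted gene 1349 kb away. Reg4, the family member on another chromosome, was listed without a value.

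The promoters of 4 members are shown because they stand for the patterns found below: Reg1, whose level went with that of the acinar enzyme genes, and Reg2, Reg3b and Reg3g, which were far higher in ob/ob. Each is the 250 bases before the RefSeq start in GRCm38.p6, read 5′ to 3′ on the gene's own strand: Reg1 at chr6:78425733-78425982 (plus), Reg2 at chr6:78404905-78405154 (plus), Reg3b at chr6:78370635-78370884 (plus) and Reg3g at chr6:78468875-78469124 (minus). For Reg1, Reg2 and Reg3b the GENCODE gene begins upstream of that start, so most or all of these 3 windows lies inside the annotated gene. Capitals mark CACCTG (an E box of the kind bound by the acinar factor PTF1A), GGGAAA (the letters of the other part of PTF1 sites) and TTCNNNGAA (the letters of STAT sites), each searched on both strands.
Reg1: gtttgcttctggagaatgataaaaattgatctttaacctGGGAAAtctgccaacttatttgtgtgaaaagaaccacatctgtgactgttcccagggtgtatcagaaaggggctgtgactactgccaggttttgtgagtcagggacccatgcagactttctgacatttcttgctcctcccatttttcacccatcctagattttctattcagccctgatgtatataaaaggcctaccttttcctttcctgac
Reg2: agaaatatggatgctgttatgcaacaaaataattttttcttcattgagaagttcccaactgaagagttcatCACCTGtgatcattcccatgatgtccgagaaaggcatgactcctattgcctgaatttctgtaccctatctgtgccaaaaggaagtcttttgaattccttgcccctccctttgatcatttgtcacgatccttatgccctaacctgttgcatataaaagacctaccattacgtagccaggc
Reg3b: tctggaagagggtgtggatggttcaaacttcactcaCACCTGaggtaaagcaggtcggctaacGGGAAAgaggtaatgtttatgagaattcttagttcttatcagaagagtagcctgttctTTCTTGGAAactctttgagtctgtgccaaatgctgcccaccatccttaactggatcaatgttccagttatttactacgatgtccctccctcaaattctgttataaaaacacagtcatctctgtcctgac
Reg3g: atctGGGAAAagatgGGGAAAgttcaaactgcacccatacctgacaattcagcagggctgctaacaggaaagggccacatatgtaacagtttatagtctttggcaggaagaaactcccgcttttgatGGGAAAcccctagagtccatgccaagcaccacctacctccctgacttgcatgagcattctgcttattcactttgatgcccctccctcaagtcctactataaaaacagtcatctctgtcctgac
TTCNNNGAA was found in 2 of the 6 promoters, those of Reg3b and Reg3d, and in 7.02% of 32851 promoters of the same length. CACCTG was found in 4 (Reg2, Reg3a, Reg3b and Reg3d; 17.2% of all promoters) and GGGAAA in 4 (Reg1, Reg3b, Reg3d and Reg3g; 21.9%). In Reg3d the TTCNNNGAA match overlaps a GGGAAA match on the other strand. Among the 15 pairs of promoters Reg3b and Reg3g were the most alike, with 68.9% identical positions. A match of letters describes the window and shows no binding.

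Because the members are paralogs, their transcripts were compared for sequence that could confuse the counting of reads. Coding sequences were identical at 58.4% (Reg2 with Reg3g) to 79.2% (Reg1 with Reg2) of aligned positions. None of the 15 pairs of transcripts shared a stretch of 50 bases. The read length and the counting method were not given in the sources used here, and exchange of shorter reads between members was not tested.

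Reg2 had the largest difference in FPKM between the genotypes. FPKM counts fragments per kilobase of transcript relative to the fragments of the library, so levels of different genes can be compared on it. Reg2 was at 2449, 719, 841 and 1912 FPKM in ob/ob libraries 1 to 4, against 23.9, 20.7, 228 and 152 FPKM in ob/+ libraries 1 to 4. Every ob/ob library was above every ob/+ library, and within ob/+ libraries 3 and 4 stood well above 1 and 2. The means were 1480 ± 839 FPKM in ob/ob and 106 ± 102 FPKM in ob/+ (SD, n = 4 each), a ratio of 14.0. On the log2(FPKM + 1) scale the difference was 4.30 ± 0.96 (SE), and 2 of 11747 tested genes had a larger one.

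Reg3a encodes a lectin of the pancreatitis-associated protein group. It was at 221, 78.5, 44.4 and 256 FPKM in ob/ob libraries 1 to 4, against 1.06, 0.57, 21.8 and 7.84 FPKM in ob/+ libraries 1 to 4. The genotypes did not overlap, and ob/+ library 3 came closest to the ob/ob range. The means were 150 ± 104 FPKM in ob/ob and 7.81 ± 9.88 FPKM in ob/+ (SD, n = 4 each), with a log2 difference of 4.57 ± 1.07 (SE).

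Reg3g encodes a lectin that kills Gram-positive bacteria in the gut and is the family member with the lowest level here. It was at 98, 31.9, 21.7 and 72.9 FPKM in ob/ob libraries 1 to 4, against 2.56, 0.38, 7.15 and 1.74 FPKM in ob/+ libraries 1 to 4. The lowest ob/ob library was still above the highest ob/+ library. The log2 difference was 3.90 ± 0.71 (SE), between means of 56.1 ± 35.6 FPKM in ob/ob and 2.96 ± 2.94 FPKM in ob/+ (SD, n = 4 each).

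Reg3b, the classical pancreatitis-associated protein of the mouse, had the same direction with an overlap. It was at 521, 166, 94.1 and 543 FPKM in ob/ob libraries 1 to 4, against 16.8, 11.3, 136 and 82.8 FPKM in ob/+ libraries 1 to 4. Only ob/ob library 3 fell inside the ob/+ range, below ob/+ library 3. The means were 331 ± 234 FPKM in ob/ob and 61.7 ± 59.2 FPKM in ob/+ (SD, n = 4 each), and the log2 difference was 2.70 ± 1.03 (SE).

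Reg1 and Reg3d did not share this separation. Reg1, known in humans as lithostathine or pancreatic stone protein, was at 1281, 470, 803 and 798 FPKM in ob/ob libraries 1 to 4, against 799.6, 815, 1991 and 3025 FPKM in ob/+ libraries 1 to 4. The genotypes overlapped, and the highest values were those of ob/+ libraries 3 and 4. The log2 difference of Reg1 was -0.84 ± 0.55 (SE), between means of 838 ± 334 FPKM in ob/ob and 1658 ± 1069 FPKM in ob/+ (SD, n = 4 each).

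Reg3d, a relative of the islet neogenesis associated protein first described in hamsters, was at 110.4, 42.1, 55.8 and 109 FPKM in ob/ob libraries 1 to 4, against 28.9, 25.8, 122 and 131 FPKM in ob/+ libraries 1 to 4. The ob/ob values lay inside the range of the ob/+ values. The means were 79.4 ± 35.6 FPKM in ob/ob and 77.0 ± 57.5 FPKM in ob/+ (SD, n = 4 each), a log2 difference of 0.30 ± 0.70 (SE).

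All 6 members passed the expression filter of 1 FPKM or more in at least 4 libraries. In 3 of the 6 (Reg2, Reg3a and Reg3g) every ob/ob library exceeded every ob/+ library, as was so for 9.75% of tested genes, and in 0 of the 6 was every ob/ob library lower, as was so for 10.7%. In 4 of the 6 (these and Reg3b) the log2 difference was above 2, as was so for 0.238% of tested genes. Since the members were chosen with this contrast known, nothing is read from these shares.

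**Figure D1:**
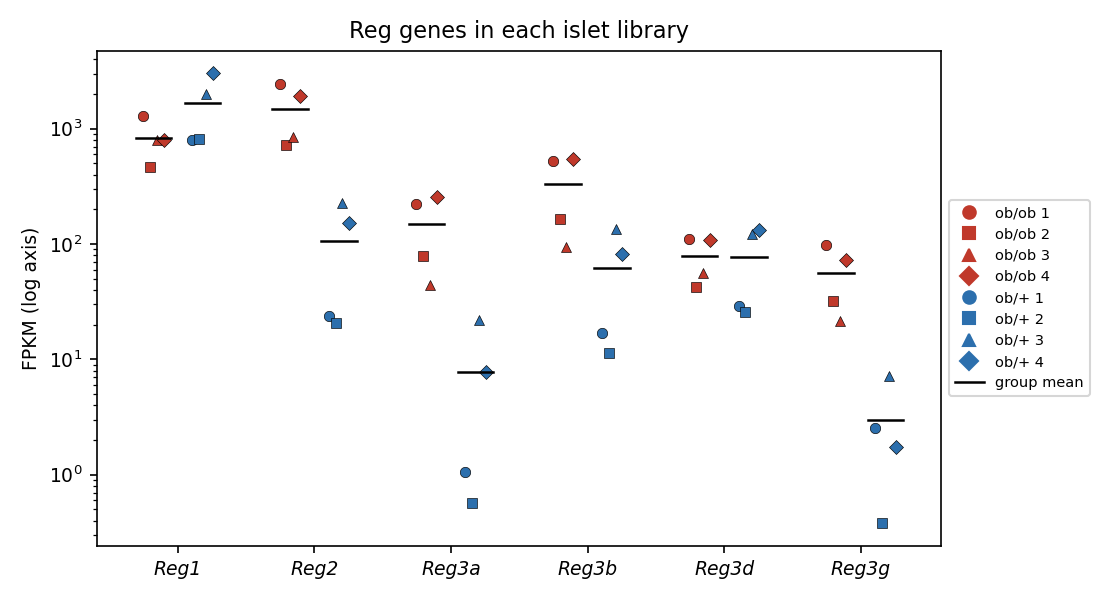
FPKM of each Reg gene in each library on a log axis, with ob/ob in red and ob/+ in blue, 1 symbol per library number and a bar at the arithmetic mean of 4 libraries. Reg2, Reg3a and Reg3g have no overlap between genotypes, Reg3b overlaps through ob/ob library 3, and Reg1 and Reg3d overlap widely.

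The order of the members by level differed between the genotypes. In ob/ob the order of mean FPKM was Reg2, Reg1, Reg3b, Reg3a, Reg3d and Reg3g. Reg2 was above Reg1 in 4 of 4 ob/ob libraries, though by as little as 1.05 times in library 3, and Reg3a and Reg3d changed places in 1 of 4 libraries. In ob/+ the order was Reg1, Reg2, Reg3d, Reg3b, Reg3a and Reg3g. There Reg1 was 8.73 to 39.4 times Reg2 within a library, while Reg2 exceeded Reg3d in only 2 of 4 libraries, Reg3d exceeded Reg3b in 3 of 4 and Reg3a exceeded Reg3g in 3 of 4.

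The make-up of the family's transcripts differed more between the genotypes than its sum. The summed FPKM of the 6 genes was 2935 ± 1507 in ob/ob against 1913 ± 1255 in ob/+ (SD, n = 4 each), or 0.305% ± 0.158 of all FPKM in ob/ob against 0.224% ± 0.144 of all FPKM in ob/+. Reg1 made up 30.8% ± 9.12 of that sum in ob/ob against 88.3% ± 6.18 in ob/+, and Reg2 made up 49.3% ± 3.40 in ob/ob against 4.67% ± 3.09 in ob/+ (SD, n = 4 each). Reg2 held 45.2% to 52.3% of the sum in each ob/ob library, against 2.37% to 9.10% in each ob/+ library. Reg3d kept a similar part, 2.78% ± 0.293 in ob/ob against 3.75% ± 0.835 in ob/+ (SD, n = 4 each).

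**Figure D2:**
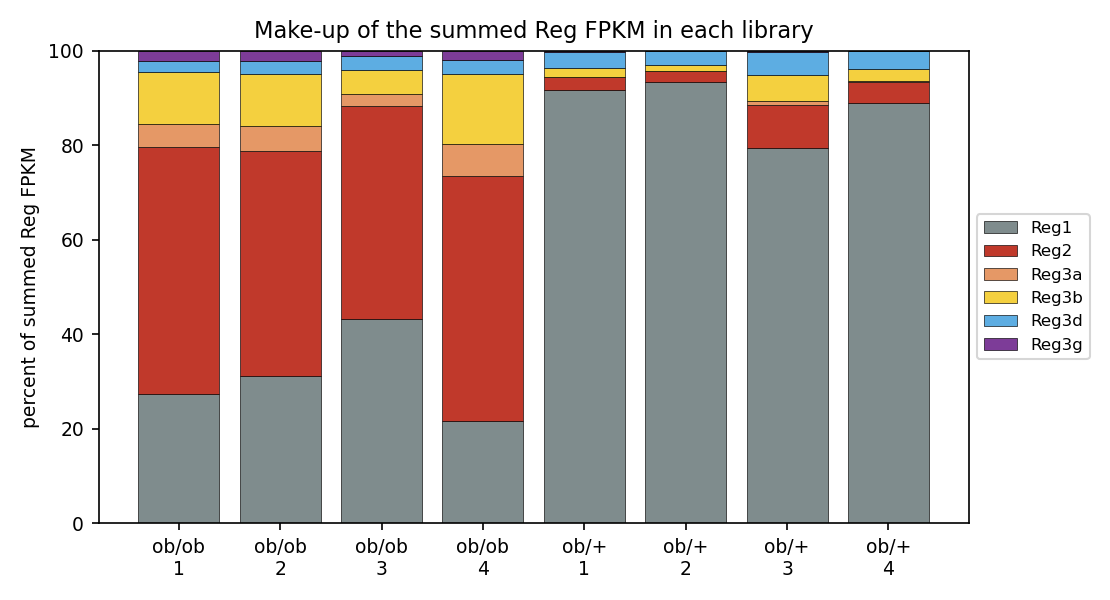
Stacked bars of the percentage of the summed Reg FPKM that each member contributed in each of the 8 libraries, ob/ob on the left. Reg1 fills 79.5% to 93.3% of the bars of ob/+ libraries, and Reg2 is the largest part of every ob/ob bar.

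Acinar transcripts were present in every library and moved with some of the members. The 34 acinar enzyme and secreted protein genes with a value, none of them a Reg gene, summed to 11.2%, 3.20%, 6.23% and 6.34% of the remaining FPKM in ob/ob libraries 1 to 4, against 10.3%, 7.37%, 13.5% and 25.1% in ob/+ libraries 1 to 4. The means were 6.75% ± 3.32 in ob/ob against 14.1% ± 7.74 in ob/+ (SD, n = 4 each). This share did not differ past the threshold in an exact two-sided permutation test (p = 0.0857, where 4 against 4 can reach 0.0286).

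Set against that acinar sum, Reg1 was level between the genotypes. Per 1000 FPKM of acinar genes there were 12.1 to 14.6 FPKM of Reg1 in ob/ob libraries and 9.09 to 18.0 in ob/+ libraries. The means were 13.4 ± 1.15 in ob/ob against 13.4 ± 3.66 in ob/+ (SD, n = 4 each). That holds for the sum, not for each gene in it. Single acinar genes had log2 differences from -1.88 (Pla2g1b) to 3.18 (Prss1), with -1.26 for Amy2a5 and 0.15 for Try5, against -0.84 for Reg1. Reg2 stood at 14.7 to 30.6 per 1000 in ob/ob and 0.272 to 2.06 in ob/+, a ratio of means of 27.1. Reg3b, which overlapped in FPKM, did not overlap on this scale, at 1.64 to 8.70 per 1000 in ob/ob and 0.178 to 1.23 in ob/+. Reg3a (ratio of means 37.1) and Reg3g (32.2) were also apart, while Reg3d overlapped at 0.975 to 1.75 in ob/ob and 0.328 to 1.10 in ob/+. The part of acinar content in the genotype difference of the members was not tested. The log2 differences were also taken with ob/ob 1 and ob/+ 4 left out, the acinar-richest library of either genotype (a choice made after the data were seen). They were 4.40 for Reg2, 4.54 for Reg3a, 2.73 for Reg3b and 3.48 for Reg3g, against 0.49 for Reg3d and -0.70 for Reg1. The libraries kept had acinar shares of 3.20% to 6.34% in ob/ob and 7.37% to 13.5% in ob/+, which do not overlap. The choice thus does not match the genotypes in acinar content, and nothing is read from it.

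**Figure D3:**
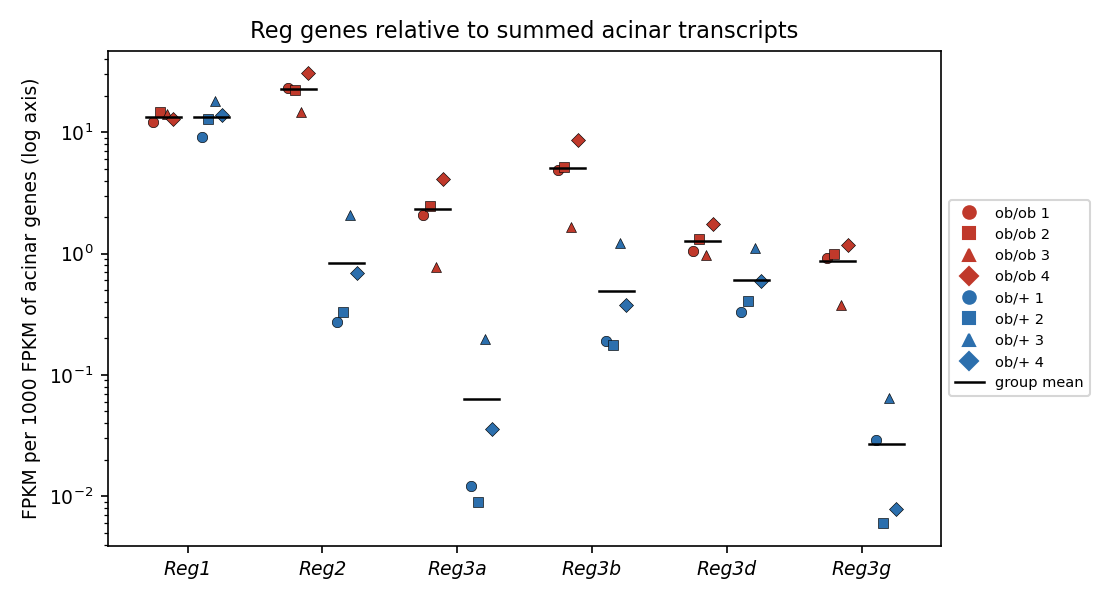
Each Reg gene's FPKM per 1000 FPKM of 34 summed acinar genes on a log axis, with ob/ob in red, ob/+ in blue, 1 symbol per library number and a bar at the mean. Reg1 sits between 9.09 and 18.0 in both genotypes, and Reg2, Reg3a, Reg3b and Reg3g do not overlap.

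The Reg genes varied between libraries of the same genotype more than nearly all other genes. The SD between libraries on the log2(FPKM + 1) scale, pooled over the genotypes, was 1.54 for Reg3a, 1.49 for Reg3b, 1.38 for Reg2, 1.03 for Reg3g, 1.01 for Reg3d and 0.80 for Reg1, where the median gene had 0.17. Of the 4854 tested genes with a mean of 10 FPKM or more, 1 had a larger SD than Reg3a and 26 had a larger SD than Reg1. Reg1 was not set apart from the acinar enzyme genes in this. The SE of its log2 difference was 0.55, where those genes ran from 0.19 (Cela3a) to 0.56 (Sycn). The other members had 0.70 (Reg3d) to 1.07 (Reg3a). In ob/+, the highest library exceeded the lowest 38.2 times for Reg3a, 11 times for Reg2 and 3.78 times for Reg1. In ob/ob the same ratios were 5.77 for Reg3a, 3.41 for Reg2 and 2.73 for Reg1.

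The members varied together from library to library. In ob/+, libraries 3 and 4 were the highest pair for every member except Reg3g, whose second highest was library 1. In ob/ob, libraries 1 and 4 were the highest pair for every member except Reg1, whose second highest was library 3 at a value close to library 4. With the genotype means removed, the correlation over 8 libraries had a median of 0.89 over the 15 pairs of members. It was highest for Reg3a with Reg3b (Pearson's r = 0.99, Spearman's rho = 0.93) and lowest for Reg1 with Reg3g (r = 0.49, rho = 0.40). On leaving out the 2 libraries farthest from the median of the first gene, these became 1.00 and 0.81, and the lowest of the 15 was Reg2 with Reg3g at 0.47. These correlations are descriptions of 8 libraries, with no p, because covariation was part of the choice of the genes.

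The acinar sum followed the members unequally. Its correlation over the same 8 libraries was 0.93 with Reg1 (rho = 0.83), 0.82 with Reg3d (rho = 0.86) and 0.75 with Reg2 (rho = 0.79), and 0.67 with Reg3b (rho = 0.67), 0.59 with Reg3a (rho = 0.60) and 0.48 with Reg3g (rho = 0.55). Without ob/+ 4 and ob/ob 2, the 2 libraries farthest from its median, the values were 0.81 for Reg1, 0.69 for Reg3d, 0.73 for Reg2, 0.73 for Reg3b, 0.69 for Reg3a and 0.86 for Reg3g, so the order of the members rests on those libraries. Within a genotype, libraries of like acinar share could differ in Reg3 genes. The ob/ob libraries 3 and 4 had nearly equal acinar shares (6.23% and 6.34%), while Reg3a was at 44.4 FPKM in library 3 and 256 FPKM in library 4. In ob/+, library 3 had a smaller acinar share than library 4 (13.5% and 25.1%) and more Reg3a (21.8 and 7.84 FPKM), but less Reg3d (122 and 131 FPKM). The part of acinar content in these differences was not tested.

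**Figure D4:**
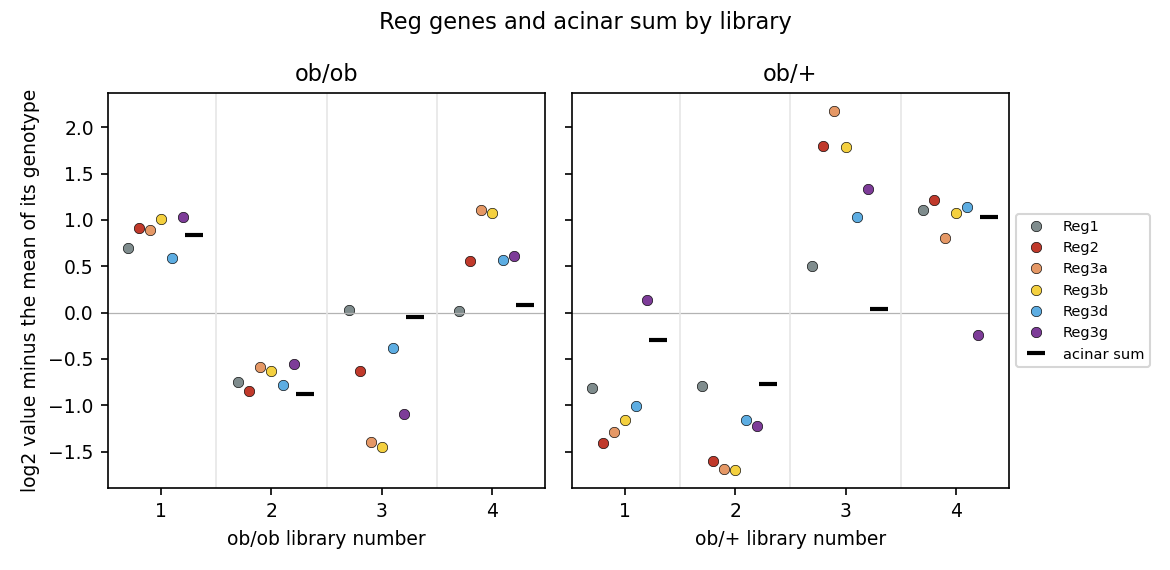
log2(FPKM + 1) of each Reg gene and log2 of the acinar sum in each library, minus the mean of the genotype, with ob/ob on the left and ob/+ on the right. Libraries 1 and 4 of ob/ob and 3 and 4 of ob/+ are high for most members, and the Reg genes spread more widely than the acinar sum in ob/+ library 3.

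**Figure D5:**
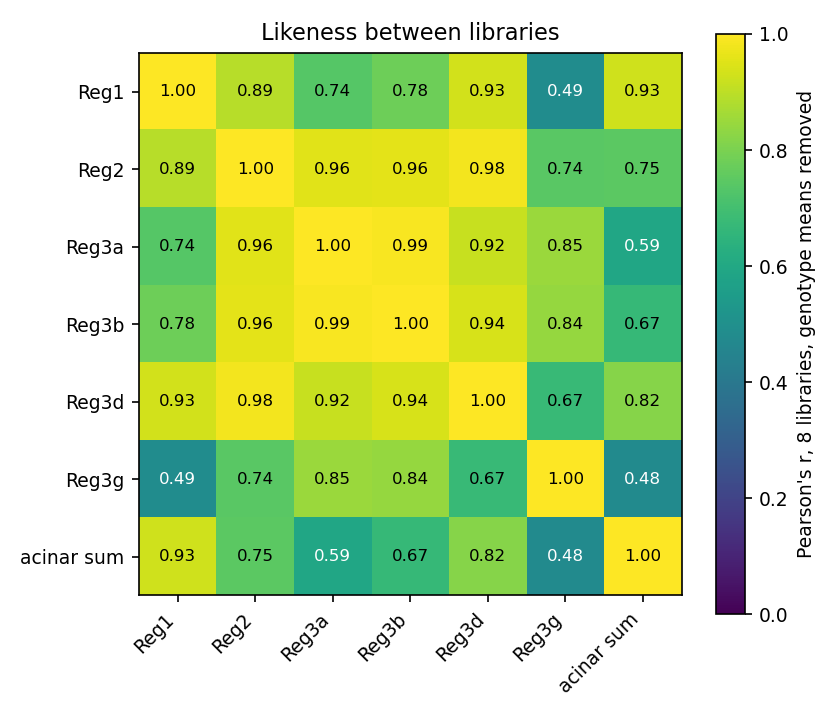
Pearson's r between the 6 Reg genes and the acinar sum over 8 libraries, on log2 values with the genotype means removed. Reg2, Reg3a, Reg3b and Reg3d form a block at 0.92 and above, Reg1 is closest to Reg3d and the acinar sum at 0.93, and Reg3g is lowest with Reg1 and the acinar sum.

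Outside the family, the genes whose pattern over the 8 libraries was most like that of a member fell into different sets. For Reg1 they were Muc1, an epithelial mucin (r = 0.98), Vtn of the plasma and matrix protein vitronectin (0.97), Gcat, an enzyme of threonine breakdown (0.96), and the prostaglandin receptor Ptger3 (0.95). With predicted genes (Gm and Rik names) and the family left out, 63 genes were above 0.9. For Reg2 they included Clec11a, itself a secreted C-type lectin (0.99), Itih4, an acute phase protein (0.96), and Muc1 (0.92). Clec11a and Itih4 were also among the closest 4 for Reg3a, Reg3b and Reg3d, with Dbpht2 for Reg3a (0.94) and Reg3b (0.91), the potassium channel Kcnq1 for Reg3b (0.88) and the secreted scavenger protein Dmbt1 for Reg3d (0.93). Reg3g had its own set, Ccdc85c (0.93), the cation channel Trpm4 (0.91), Tpmt of thiopurine methylation (0.91) and Flywch2 (0.90). These 4 were low and varied far less in size than Reg3g, which ran from 0.38 to 98 FPKM over the 8 libraries. Ccdc85c was at 1.35 to 2.33 FPKM, Trpm4 at 2.2 to 3.18, Tpmt at 1.17 to 1.64 and Flywch2 at 2.55 to 4.95. These correlations are the highest over the tested genes outside the family, with predicted genes left out. Each is over 8 libraries, whose acinar share ran from 3.20% (ob/ob 2) to 25.1% (ob/+ 4) and whose depth is unknown. The part of depth or composition in them was not tested. Of the genes named here, limma called Vtn, Gcat and Dbpht2 lower and Flywch2 higher in ob/ob. The calls of Vtn and Gcat ended with median centring (adjusted p = 0.0858 and 0.0648), and that of Flywch2 with libraries scaled to the same sum (0.119) or without ob/ob 1, ob/ob 4 or ob/+ 2 (0.0682 to 0.0828).

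Itih4 had the largest log2 difference between genotypes of these genes. It was at 7.67, 1.97, 3.43 and 5.07 FPKM in ob/ob libraries 1 to 4, against 0.56, 0.38, 2.96 and 2.66 FPKM in ob/+ libraries 1 to 4. The order of the libraries was that of Reg2 in both genotypes, and the genotypes overlapped. Its log2 difference of 1.12 ± 0.51 (SE) did not pass the test of limma, a linear model fitted across all genes (adjusted p = 0.198 after Benjamini-Hochberg adjustment), but did with the acinar sum as a covariate (1.87, adjusted p = 0.00151) and without the robust option (adjusted p = 0.0349). Clec11a varied little in size, 1.86 to 2.09 FPKM in ob/ob and 1.55 to 2.03 FPKM in ob/+, and did not pass either (log2 difference 0.11 ± 0.12 SE, limma adjusted p = 0.560). Dmbt1, at 241 ± 125 FPKM in ob/ob and 187 ± 104 FPKM in ob/+ (SD, n = 4 each), did not pass (0.36, limma adjusted p = 0.716), but did with the acinar sum as a covariate (1.24, adjusted p = 0.0336).

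Across all 11747 tested genes limma called 965 higher in ob/ob (8.21%) and 1243 lower (10.6%), and the gene lists around the family are set beside that. The split depended on the scaling: 517 higher and 3146 lower with libraries scaled to the same sum, 1823 and 1606 with median centring, and 479 and 6998 with a scaling that omits the acinar and Reg genes. It also depended on single libraries, with 3728 lower without ob/+ 4 and 635 to 815 lower without ob/ob 1, ob/ob 4, ob/+ 1, ob/+ 2 or ob/+ 3. Of 34 tested acinar enzyme genes 1 was called higher and 1 lower, with a median log2 difference of -0.78 where all tested genes had -0.07. The gene called higher was Prss1, a trypsinogen with close paralogs, at 15.7 ± 2.39 FPKM in ob/ob and 0.938 ± 0.834 FPKM in ob/+. The gene called lower was Cela3a, an elastase, at 0.36 ± 0.303 FPKM in ob/ob and 1.58 ± 0.720 FPKM in ob/+ (SD, n = 4 each). Cela3a reached the filter through ob/+ alone (0.09 to 0.77 FPKM in ob/ob, against 1.00 to 2.62 FPKM in ob/+). It was not tested, and the count of lower genes was 0, without ob/+ 1, ob/+ 2 or ob/+ 3, with a filter on the mean and with a scaling that omits the 10 most abundant genes. With no filter its adjusted p was 0.0113. Prss3, another trypsinogen (1.52 ± 0.45 SE, adjusted p = 0.0653), and Pla2g1b, the pancreatic phospholipase (-1.88 ± 0.52 SE, adjusted p = 0.0531), came next and did not pass. Pla2g1b was called lower in 6 of 18 alternatives, such as with libraries scaled to the same sum (limma adjusted p = 0.0286) and without ob/+ 4 (0.0397). Prss3 was called higher in 5 of 18, such as without ob/+ 4 (0.00303). The list's calls were 12 higher and 9 lower with the acinar sum as a covariate, and 2 higher and 13 lower without the robust option. The list had 3 lower with the same sum and 4 lower with the scaling that omits acinar and Reg genes. None of 7 tested acinar transcription factors and receptors was called, and Ptf1a was at 2.21 ± 1.06 FPKM in ob/ob and 3.11 ± 2.13 FPKM in ob/+ (SD, n = 4 each; adjusted p = 0.647). In that list 1 gene, the acinar factor Bhlha15, had an unadjusted limma p just under 0.05. Bhlha15 was called higher with the scaling that omits the 10 most abundant genes (limma adjusted p = 0.0376) and without ob/+ 2 (0.0329). The list had 2 members higher with the acinar sum as a covariate, and 1 lower with no filter or without the robust option.

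In the list of IL-6 and IL-22 family signalling to STAT3, the route known to induce Reg3 genes, 1 of 19 tested members was called higher and 4 lower, with a median log2 difference of -0.11. Socs3, the feedback inhibitor that STAT3 itself induces, rose to 5.75 ± 1.41 FPKM in ob/ob, against 3.14 ± 0.658 FPKM in ob/+ (SD, n = 4 each; 0.70 ± 0.15 SE, limma adjusted p = 0.00133). Its values were 4.54, 7.58, 6.14 and 4.75 FPKM in ob/ob libraries 1 to 4, against 2.51, 4, 3.27 and 2.76 FPKM in ob/+ libraries 1 to 4. The genotypes did not overlap, and library 2 was the highest and library 1 the lowest in both. The genes called lower were receptors and a kinase of the route. They were Cntfr, the ciliary neurotrophic factor receptor (-1.63 ± 0.14 SE), Lifr, the leukaemia inhibitory factor receptor (-0.76 ± 0.12), Il6st, the shared subunit gp130 (-0.69 ± 0.15), and Jak1 (-0.43 ± 0.11), with limma adjusted p from 7.98e-08 to 0.00604. Stat3 was at 19.1 ± 1.76 FPKM in ob/ob and 21.1 ± 0.963 FPKM in ob/+ (SD, n = 4 each; adjusted p = 0.386). Under the scaling that omits acinar and Reg genes the list had 12 members lower, Stat3 among them (-0.42, adjusted p = 0.00239). Il22ra1, the receptor subunit for interleukin-22, was at 0.37 to 1.26 FPKM in ob/ob and 0.74 to 1.57 FPKM in ob/+ and lay under the filter, and Il6 was listed at 0 in 7 of 8 libraries.

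Of 10 tested acute phase and pancreatic injury genes 2 were called higher and 0 lower, with a median log2 difference of 0.13. They were Cd44, a hyaluronan receptor, at 24.5 ± 1.40 FPKM in ob/ob and 5.77 ± 0.616 FPKM in ob/+ (SD, n = 4 each; limma adjusted p = 8.74e-12), and Clu, the extracellular chaperone clusterin (0.39 ± 0.10 SE, limma adjusted p = 0.00568). The call of Clu ended with libraries scaled to the same sum (0.21, adjusted p = 0.106) and with the scaling that omits acinar and Reg genes (0.09, adjusted p = 0.597). Nupr1, a stress protein first found in pancreatitis, was at 187 ± 74.2 FPKM in ob/ob and 348 ± 142 FPKM in ob/+ (SD, n = 4 each) and did not pass (adjusted p = 0.159). Cp, the copper carrier ceruloplasmin, did not pass either (-0.39 ± 0.17 SE, adjusted p = 0.120), and these 2 were the members lower at an unadjusted p under 0.05. Cp was called lower with libraries scaled to the same sum (adjusted p = 0.0229), with the scaling that omits acinar and Reg genes (0.02) and without ob/ob 3 (0.0287) or ob/+ 2 (0.0468). The list had 1 or 2 members lower in 8 of 18 alternatives.

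Among 8 tested genes of the wider C-type lectin domain family 2 were called higher and 0 lower, with a median log2 difference of 0.18. Sftpd, surfactant protein D, was at 1.84 ± 0.268 FPKM in ob/ob and 0.403 ± 0.192 FPKM in ob/+, and Clec14a, an endothelial lectin, at 5.30 ± 0.895 FPKM in ob/ob and 3.20 ± 0.138 FPKM in ob/+ (SD, n = 4 each; limma adjusted p = 1.90e-06 and 0.00180). Sftpd reached the expression filter through ob/ob alone (1.5 to 2.14 FPKM, against 0.18 to 0.64 FPKM in ob/+), so its place among the tested genes rests on the difference itself and the count of 2 is no support. Without any 1 of the ob/ob libraries it was not tested and 1 gene was called higher, and with no filter its adjusted p was 0.000158. In this list 1 gene was lower at an unadjusted p under 0.05. None of 4 tested exostosin glycosyltransferases passed limma, with 1, Ext1, at an unadjusted p under 0.05 (0.0403). Ext1 was called higher with median centring (limma adjusted p = 0.00902). Ext2 and Extl2 were called lower with the scaling that omits acinar and Reg genes (0.00231 and 0.00988). Extl3, a proposed receptor for Reg proteins, was at 7.93 ± 0.664 FPKM in ob/ob and 7.87 ± 0.762 FPKM in ob/+ (SD, n = 4 each; adjusted p = 0.960).

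Markers of other cells that can make or call up Reg transcripts were also read. Duct markers had 4 of 10 tested members called higher and 0 lower, also at an unadjusted p under 0.05 (median log2 difference 0.03), and their sum ran from 442 to 470 FPKM in ob/ob and from 351 to 394 FPKM in ob/+. They were Prom1 (1.32 ± 0.11 SE), Spp1 (0.76 ± 0.11), Krt7 (0.35 ± 0.10) and Krt18 (0.33 ± 0.09), with limma adjusted p from 2.63e-09 to 0.0147. The calls of Krt7 and Krt18 ended with libraries scaled to the same sum (adjusted p = 0.192 and 0.241) and with the scaling that omits acinar and Reg genes (0.632 and 0.738). Under that last scaling 2 duct markers were higher and 3 lower, and with the same sum or without ob/+ 4 there was 1 lower. That of Krt18 also ended without ob/ob 1, ob/ob 2 or ob/+ 3 (adjusted p = 0.0561, 0.0807 and 0.0604). Among gut genes Cdx2, Fabp2 and Alpi were at 0.06 FPKM or less in every library, and the epithelial gene Vil1 and Lyz1 of lysozyme did not pass (adjusted p = 0.172 and 0.592). The 14 leukocyte markers summed to 8.89, 20.8, 60.5 and 45.5 FPKM in ob/ob libraries 1 to 4, against 30.0, 15.9, 24.1 and 20.3 FPKM in ob/+ libraries 1 to 4. Library 1 of ob/ob, which had the most Reg2 and Reg3g, had the least, with 6 of 14 markers at 0. Library 3, the lowest of ob/ob in Reg3a, Reg3b and Reg3g, had the most. The other libraries of ob/ob did not follow that order. Library 4, the highest of ob/ob in Reg3a and Reg3b, was next at 45.5 FPKM, and library 2, the lowest in Reg2, was at 20.8 FPKM. None of the 4 tested members passed limma (Csf1r had an unadjusted p of 0.0421). Ptprc was called higher without ob/ob 1 (0.94, limma adjusted p = 0.0167). Csf1r was called lower with libraries scaled to the same sum (limma adjusted p = 0.0265). It was also called lower with the scaling that omits acinar and Reg genes (0.00821) and without ob/ob 3 (0.0179). The 5 stellate cell and fibroblast markers summed to 11.1 to 29.6 FPKM in ob/ob, against 37.6 to 52.3 FPKM in ob/+, with no overlap. The collagen genes Col1a1 (-1.45 ± 0.21 SE), Col1a2 (-1.02 ± 0.14) and Col3a1 (-1.02 ± 0.18), named after their values were seen, were called lower (limma adjusted p = 0.000297, 6.89e-06 and 0.000771), while Dcn of decorin and the receptor gene Pdgfrb were not (0.118 and 0.230). Of 8 islet hormone genes 2 were called higher (Ins2 and Iapp) and 5 lower (Gcg, Sst, Ppy, Pyy and Ghrl), with a median log2 difference of -1.37. The call of Ins2 ended with median centring (adjusted p = 0.166), with the scaling that omits acinar and Reg genes (0.0552) and without the robust option (0.456). Ins1 was not called (0.216). The other beta cell markers read, Mafa (-1.15 ± 0.11 SE) and Slc2a2 (-1.29 ± 0.10), went the other way from Ins2 and Iapp. Both, named after their values were seen, were called lower (limma adjusted p = 4.12e-08 and 2.09e-09). The part that any of these cell types has in the levels of the Reg genes was not tested.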

How the data were processed

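The 8 libraries were grouped by labelled genotype, 4 ob/ob and 4 ob/+. Nothing in the labels ties a library to a single mouse, so errors and p-values cover the spread between libraries, which may be technical. The authors deposited 1 normalized value per gene and library with no unit named in headers or labels, which is read here as FPKM (their own length and library scaling) from the decimals and from sums that vary by library (820968 to 1004230). The submitters' processing notes name Trimmomatic 0.36, DESeq2 1.20.0, mm10 and GRCm38 but give them no role; aligner and quantifier were not given in the sources used here. FPKM is relative to the library, so abundant insulin or acinar transcripts depress other genes. Absolute depth could not be known, and no counting interval is printed.

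The limma 3.58.1 fit (R 4.3.3; eBayes, trend and robust) covered the 11747 genes with at least 1 FPKM in 4 or more libraries, on log2(FPKM + 1), which understates changes of low genes. It was two-sided, and calls needed a Benjamini-Hochberg adjusted p below 0.05; the code was tested on simulated data. Members, gene lists and motifs were chosen with earlier results of these data known, and the ratio to the acinar sum after values were seen. Other genes named were the 4 with the smallest p in each list, the 4 most like each member (Pearson's r of log2 values less the genotype mean), neighbours, known regulators, and members of counts of 5 or fewer; 1 gene that this rule takes is not reported here. Other steps used Python 3.11.15, SciPy 1.17.1 and Biopython 1.88. Positions and transcripts are from GENCODE on GRCm38 and promoters from RefSeq on GRCm38.p6, with all 6 members matched. The alternatives changed scaling, filter, pseudocount and robust option, added a block or covariate, or left out libraries.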

Additional observations from a re-analysis of the deposited data

Results flagged for a closer look

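Of 134 groups of 4 libraries examined, 4 held a library far from the other 3, where chance gives about 1 in 20. Reg3a per 1000 FPKM of acinar genes was 0.197 in ob/+ library 3, against 0.00901 to 0.0357 in the other ob/+ libraries. Ptf1a, the acinar transcription factor, was at 6.31 FPKM in ob/+ library 4, against 1.98 to 2.12 FPKM in the other ob/+ libraries. The trypsinogen Prss1 was at 2.18 FPKM in ob/+ library 4, against 0.44 to 0.66 FPKM in the others. Somatostatin (Sst) was at 6082 FPKM in ob/+ library 1, against 5440 to 5541 FPKM in the others. The acinar share was highest in ob/+ library 4, at 25.1%, but this value was not far enough from the others to stand out by the same measure.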

How the results depend on the processing

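The log2 differences of Reg2, Reg3a, Reg3b and Reg3g stayed positive under 19 alternatives each (lowest 3.76, 4.01, 2.14 and 3.48), and that of Reg1 stayed negative under all but the acinar sum as a covariate (0.036). Reg3d was -0.034 without ob/+ 1, -0.086 without ob/+ 2, 0.01 with the acinar and Reg genes left out of the scaling and 1.28 with the acinar covariate. Leaving out 1 library gave -1.11 to -0.47 for Reg1, 3.76 to 4.90 for Reg2, 4.01 to 5.29 for Reg3a, 2.14 to 3.30 for Reg3b, -0.086 to 0.68 for Reg3d and 3.49 to 4.35 for Reg3g. The median correlation of the 15 pairs stayed at 0.86 to 0.92, and the acinar difference at -9.55 to -3.65 points (exact permutation p = 0.0571 to 0.171).

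Counts of genes moved with the scaling. Genes higher in ob/ob were 517 with libraries scaled to the same sum, 1823 with median centring and 479 with the acinar and Reg genes left out of the scaling, and 713 to 1104 without 1 library. Genes lower were 3146 with the same sum, 6998 with acinar and Reg genes left out, 621 with the 10 most abundant genes left out and 2573 with the acinar covariate. Without 1 library they were 635 to 3728, the highest without ob/+ 4. The median log2 difference of all genes, -0.07, was -0.22 and -0.33 in the first 2 of these. The counts of list members are set beside the 8.21% of all tested genes called higher and 10.6% called lower in the main fit, and nothing is read from them. List members called higher were 12 over the 10 lists, and 26 with the acinar covariate. Those called lower were 10, and 16 with the same sum, 31 with acinar and Reg genes left out, 16 with no filter, 20 with the acinar covariate and 25 without the robust option. The cause was not tested. Over 54 other genes named or listed, 900 values kept their side of the threshold, 19 lost it and 38 gained it.

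Replicate numbers are shared by the genotypes, but same-numbered libraries did not deviate together in all 4 pairs (correlation -0.22 to 0.21), and 3 of 4 ob/ob libraries were closest to their own number. With a replicate block 1071 genes were called higher and 1603 lower, with Cp called lower (adjusted p = 0.0418) and 4 islet hormone genes called lower in place of 5; the differences of the members are the same by construction (Reg2 4.30). Depth is unknown, so the lowest value, 0.38 FPKM of Reg3g in ob/+ 2, has no counting interval.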
